A study of Homo sapiens with 12 samples.

Results

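Expression of 10 genes that the transcription factor NF-κB is known to switch on was examined in 2 triple-negative breast cancer (TNBC) cell lines treated with antagonists of the nuclear receptor RORγ, with a statin or with both. The genes were chosen by symbol: the inhibitors NFKBIA and TNFAIP3, the survival gene BIRC3, the adhesion gene ICAM1, the chemokines CXCL1, CXCL2, CXCL3, CXCL8 (under its older symbol IL8 in 1 table) and CCL20, and the cytokine IL6. All 10 members have an entry in each of the 3 expression tables, which hold 16476 genes for HCC70, 18197 for MDA-MB468 with XY018 and ATV, and 55583 for MDA-MB468 with GSK805. HCC70 and MDA-MB468 are established lines that lack the estrogen and progesterone receptors and HER2 amplification. HCC70 was kept in RPMI medium with fetal bovine serum. For MDA-MB468 the sample labels name RPMI with serum and insulin, and the study's methods name DMEM with serum. Treatment lasted 24 h. Each line received vehicle, XY018, an antagonist of RORγ, at 1.25 μM or 2.5 μM, atorvastatin (ATV), a statin, at 1.25 μM, or 1.25 μM of both compounds. In a separate experiment MDA-MB468 received vehicle or the RORγ antagonist GSK805 at 2.5 μM. Each condition is 1 library, 12 in all, so the differences below are between single libraries and carry no p-value.

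The values are FPKM, in which the fragments of a gene are scaled by its transcript length and by the mapped fragments of the library, which allows levels of different genes to be set side by side within a table. A change is a log2 ratio, log2((treated + 0.1)/(vehicle + 0.1)) in FPKM, and a gene was compared when it reached 1 FPKM in either library. "Rose" and "fell" are used only for a change of at least 1.5-fold (0.585 on the log2 scale). The 95% counting intervals given beside some ratios are for the ratio without the added 0.1. They rest on an estimated depth of 9140000 to 10100000 fragments per HCC70 library. The MDA-MB468 libraries held an estimated 17800000 to 20200000 where XY018 and ATV were tested, and 8370000 and 8660000 where GSK805 was. The intervals cover counting error only, not the spread between cultures.

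All 6 epithelial markers examined, among them the keratin genes KRT8 and KRT5, were expressed in every library, with a summed level of 1134 to 2284 FPKM that was below vehicle in every treated library. PGR, the progesterone receptor gene, was listed at 0 or absent. ESR1, the estrogen receptor gene, was at 0.37 to 0.67 FPKM, and at 1.77 and 5.67 FPKM in the GSK805 experiment. ERBB2, the HER2 gene, was at 25.3 to 57.7 FPKM. Of the leukocyte markers, CD3E did not pass 0.14 FPKM, but CD14 and CD68, which epithelial cells can also express, reached 170.01 to 419 and 76.6 to 98.8 FPKM in HCC70. The summed level of the leukocyte list in HCC70 was 255 FPKM with vehicle, 408 and 516 with XY018 at 1.25 and 2.5 μM, 263 with ATV and 487 with both compounds. In the XY018 and ATV experiment of MDA-MB468 it was 21.6 to 26.8 FPKM, and 99.3 with vehicle and 64.3 with GSK805. The part of this list in the changes below was not tested. RNA came from whole cultures, so fewer cells of a kind and less RNA per cell cannot be told apart.

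NF-κB is a family of dimeric factors held in the cytoplasm by IκB proteins. Signals from cytokine receptors and toll-like receptors activate the IκB kinase complex (IKK), IκB is degraded, and the freed dimers enter the nucleus and bind κB sites in promoters and enhancers. Among the first genes switched on are those of the pathway's own inhibitors, NFKBIA and TNFAIP3, which close the loop, together with chemokines that draw neutrophils and other leukocytes. In TNBC, such chemokines and IL6 are often made by the tumor cells themselves.

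For 6 of the genes the match to the tighter κB form, GGANTTNCC, that lies nearest to the start is shown, because these are the genes whose levels moved most, and because they show how alike the chemokine paralogs are. The letters are from RefSeq and were placed on GRCh37 by an exact, single match. Distances are counted from the RefSeq start. The gene spans given further below are from the GENCODE annotation. They begin upstream of that start for TNFAIP3, ICAM1, CXCL2, CXCL3, CXCL8, CCL20 and IL6. The CXCL3 stretch therefore lies inside its GENCODE span, as do the whole promoter windows of CCL20 and IL6 that are described further below. Each line is 30 bases, 5′ to 3′ on the strand of the gene, and capitals mark bases in a match on either strand to this form or to a looser one, GGG and CC with any 5 bases between them.
NFKBIA (chr14:35874017-35874046, minus strand, 91 to 62 bases before the start): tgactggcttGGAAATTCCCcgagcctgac
TNFAIP3 (chr6:138188319-138188348, plus strand, 77 to 48 bases before the start): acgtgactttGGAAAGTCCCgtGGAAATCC
CXCL1 (chr4:74735022-74735051, plus strand, 88 to 59 bases before the start): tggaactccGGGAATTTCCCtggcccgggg
CXCL2 (chr4:74964970-74964999, minus strand, 87 to 58 bases before the start): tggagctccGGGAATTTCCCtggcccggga
CXCL3 (chr4:74904465-74904494, minus strand, 88 to 59 bases before the start): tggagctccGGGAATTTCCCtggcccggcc
CXCL8 (chr4:74606185-74606214, plus strand, 101 to 72 bases before the start): tgcaaatcgtGGAATTTCCtctgacataat
Over 69 bases around the match, CXCL1 and CXCL3 were 89.9% identical, CXCL1 and CXCL2 81.2% and CXCL2 and CXCL3 75.4%, whereas CXCL8 shared 36.2% to 37.7% with these paralogs.

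With vehicle, CXCL1 and NFKBIA were the most abundant members in HCC70, at 96.2 and 72.5 FPKM, and ICAM1 was the most abundant in MDA-MB468, at 103 FPKM. The remaining vehicle levels in HCC70 ran from ICAM1 at 15.6, BIRC3 at 10.5, CXCL8 at 6.10 and TNFAIP3 at 4.24 down to CXCL2 at 2.43, CXCL3 at 1.1, CCL20 at 1.02 and IL6 at 0.80 FPKM. In MDA-MB468 they ran from NFKBIA at 33.6, CXCL1 at 29.7 and CXCL8 at 16.5 to TNFAIP3 at 4.78, BIRC3 at 4.51, CCL20 at 3.87, CXCL3 at 3.41, CXCL2 at 2.03 and IL6 at 0.27 FPKM. The MDA-MB468 vehicle of the GSK805 experiment had CXCL1 at 9.17 and CXCL8 at 4.77 FPKM, below the 29.7 and 16.5 FPKM of the other vehicle. ICAM1 at 78.9, CXCL3 at 2.45 and CCL20 at 0 FPKM were lower there too. BIRC3, at 9.09 against 4.51 FPKM, was higher. NFKBIA at 38.0, TNFAIP3 at 5.14, CXCL2 at 2.05 and IL6 at 0.354 FPKM were equal to the other vehicle or slightly above it. The tables were normalized separately, and a level set across them has that limit. The cause of these differences was not tested.

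**Figure D1:**
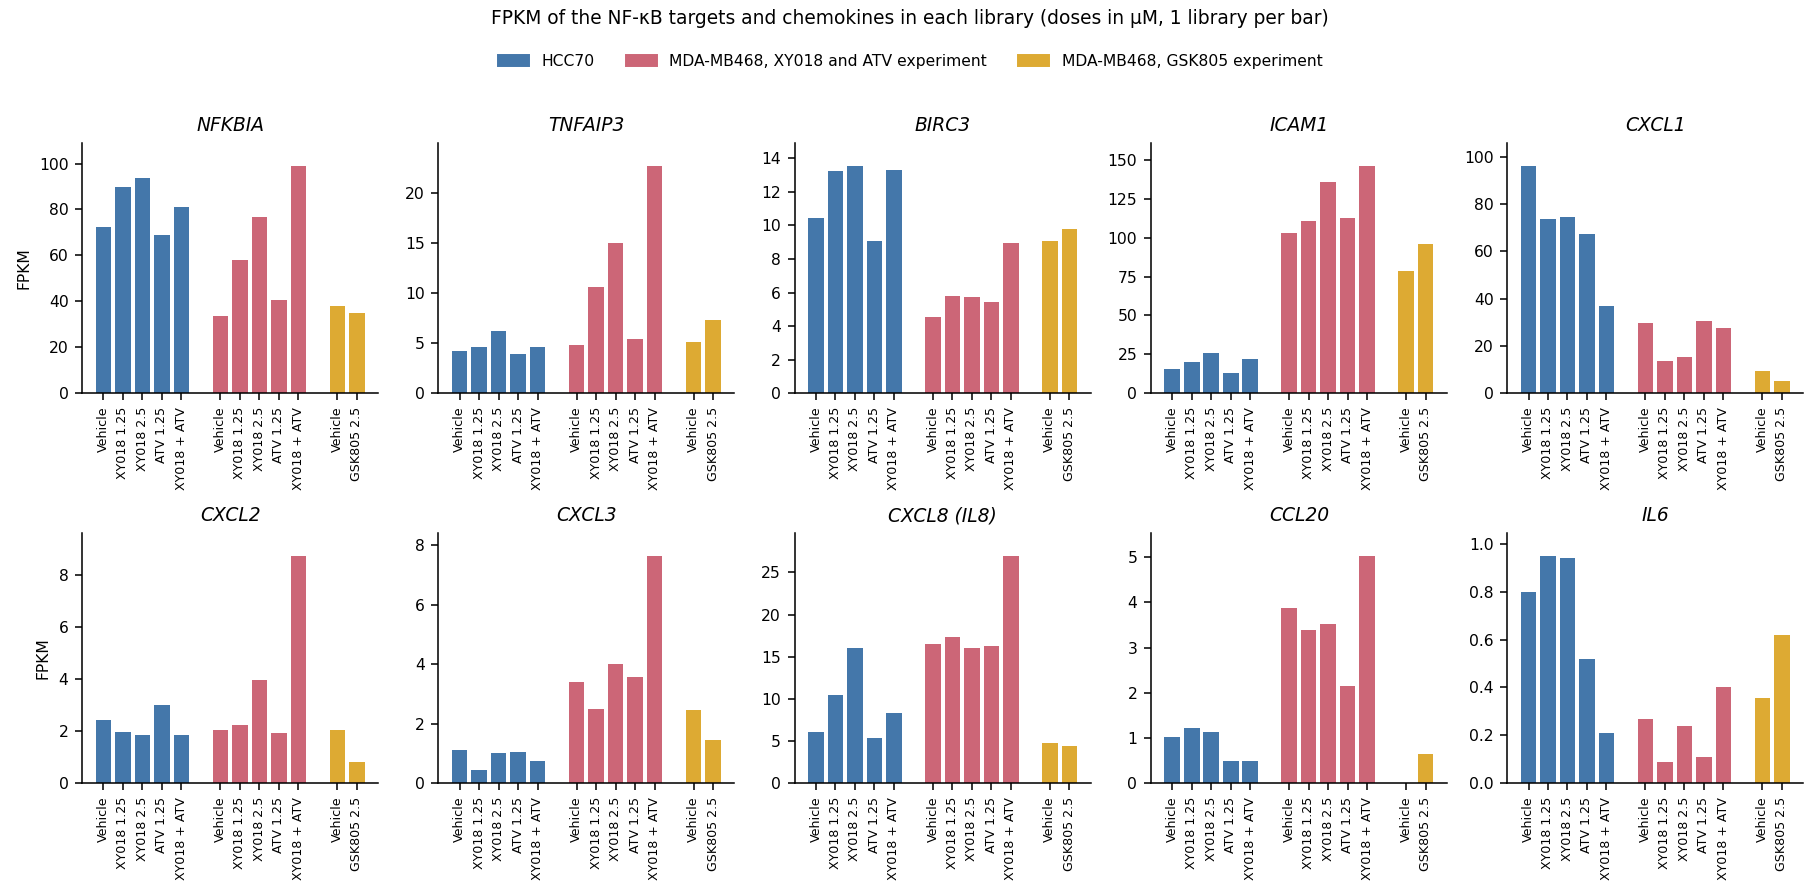
FPKM (vertical axis) of each of the 10 genes in the 12 libraries, 1 bar per library, grouped by cell line and experiment, with doses in μM. NFKBIA and TNFAIP3 step up with XY018 in MDA-MB468 to 99 and 22.7 FPKM with both compounds, while CXCL1 in HCC70 steps down to 36.9 FPKM.

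The inhibitors NFKBIA and TNFAIP3 rose with XY018 in MDA-MB468 at both doses and with both compounds, and did not reach 1.5-fold in HCC70. NFKBIA (chr14:35870285-35873955, minus strand, 6 exons) encodes IκBα, which binds NF-κB dimers and keeps them out of the nucleus. In MDA-MB468 its FPKM was 33.6 with vehicle, 57.8 and 76.7 with XY018 at 1.25 and 2.5 μM, 40.7 with ATV and 99 with both. The libraries that received XY018 were thus the highest, and ATV alone lay just above vehicle. The log2 ratios were 0.78 (counting interval 0.67 to 0.89), 1.19 (1.08 to 1.30), 0.27 (0.15 to 0.40) and 1.55 (1.45 to 1.66). In HCC70 NFKBIA was at 72.5, 89.6, 93.5, 68.9 and 81.1 FPKM in the same order. Its log2 ratio there was 0.37 (0.25 to 0.48) with XY018 at 2.5 μM and 0.16 with both compounds. With GSK805, NFKBIA was at 34.8 FPKM against 38.0 in its vehicle, a log2 ratio of -0.13 (-0.33 to 0.07).

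TNFAIP3 (chr6:138188351-138204451, plus strand, 9 exons) encodes A20, a ubiquitin-editing enzyme that shuts off signaling upstream of IKK. It had the largest change from vehicle of any member compared. In MDA-MB468 it was at 4.78 FPKM with vehicle, 10.6 and 15 with XY018 at 1.25 and 2.5 μM, 5.42 with ATV and 22.7 with both. The order of the libraries was the same as for NFKBIA. The log2 ratios were 1.13 (0.98 to 1.31), 1.63 (1.49 to 1.81), 0.18 (-0.01 to 0.37) and 2.23 (2.10 to 2.40), the last a 4.68-fold difference. In HCC70 TNFAIP3 was at 4.24, 4.56, 6.16, 3.95 and 4.62 FPKM in the same order, and its log2 ratio at the higher dose of XY018 was 0.53 (0.27 to 0.81). With GSK805 it was at 7.30 FPKM against 5.14, a log2 ratio of 0.50 (0.24 to 0.78), below the 1.5-fold mark.

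BIRC3 (chr11:102188215-102210134, plus strand, 9 exons) encodes cIAP2, a ubiquitin ligase that protects cells from TNF-induced death. In MDA-MB468 it was at 4.51 FPKM with vehicle, 5.77 and 5.74 with the 2 doses of XY018, 5.42 with ATV and 8.96 with both. Only the library with both compounds passed 1.5-fold, with a log2 ratio of 0.97 (0.85 to 1.13). In HCC70 BIRC3 was at 10.5, 13.2, 13.6, 9.08 and 13.3 FPKM, and its log2 ratios of 0.34, 0.37 and 0.34 in the libraries with XY018 stayed below the mark. With GSK805 it was at 9.80 against 9.09 FPKM.

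ICAM1 (chr19:10381769-10397291, plus strand, 7 exons) encodes the surface ligand that leukocyte integrins bind. It rose in HCC70 with XY018 at 2.5 μM, and in no other comparison with vehicle. In HCC70 it was at 15.6 FPKM with vehicle, 20.1 and 25.6 with XY018, 12.7 with ATV and 21.7 with both. The log2 ratios were 0.36 (0.18 to 0.55), 0.71 (0.54 to 0.89), -0.30 (-0.50 to -0.10) and 0.47 (0.29 to 0.65). In MDA-MB468, where ICAM1 was the most abundant member, it was at 103 FPKM with vehicle, 111 and 136 with XY018, 113 with ATV and 146 with both. The largest log2 ratio there was 0.51 (0.46 to 0.55), with both compounds. The GSK805 pair gave 95.9 against 78.9 FPKM.

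Of the chemokines that attract neutrophils through the receptors CXCR1 and CXCR2, CXCL1 fell with XY018 and with GSK805 in MDA-MB468. Its paralogs CXCL2 and CXCL3 did not fall past 1.5-fold with XY018 in that line. With GSK805 they fell too, at -1.22 and -0.73, with counting intervals that held 0. CXCL1 (chr4:74735110-74737025, plus strand, 4 exons) was at 29.7 FPKM with vehicle in MDA-MB468, 13.7 and 15.1 with XY018 at 1.25 and 2.5 μM, 30.5 with ATV and 27.7 with both. The 2 libraries with XY018 alone were the lowest, and the library with both compounds was close to vehicle. The log2 ratios were -1.11 (-1.32 to -0.92), -0.97 (-1.17 to -0.78), 0.04 (-0.12 to 0.19) and -0.10 (-0.26 to 0.06). With GSK805, CXCL1 was at 5.18 FPKM against 9.17, a log2 ratio of -0.81 (-1.39 to -0.26).

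In HCC70 the lowest CXCL1 level was instead with both compounds. CXCL1 was at 96.2 FPKM with vehicle, 73.8 and 74.4 with XY018, 67.2 with ATV and 36.9 with both. The single treatments gave log2 ratios of -0.38 (-0.52 to -0.25), -0.37 (-0.50 to -0.24) and -0.52 (-0.65 to -0.38), none of them past 1.5-fold. Both compounds together gave -1.38 (-1.55 to -1.22), a fall to 0.384 times the vehicle level. The summed leukocyte markers of this library were above vehicle, as given above.

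CXCL2 (chr4:74962757-74964913, minus strand, 4 exons) was at 2.03 FPKM with vehicle in MDA-MB468, 2.22 and 3.96 with XY018 at 1.25 and 2.5 μM, 1.94 with ATV and 8.74 with both. It rose with XY018 at 2.5 μM, with a log2 ratio of 0.93 (0.41 to 1.54), and with both compounds, with 2.05 (1.62 to 2.62). In HCC70 it stayed between 1.84 and 3.02 FPKM, and each of its 4 counting intervals there held 0. With GSK805 it was at 0.822 against 2.05 FPKM, a log2 ratio of -1.22, but this rests on an estimated 6.5 against 15.7 fragments and the interval of -2.77 to 0.12 held 0.

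CXCL3 (chr4:74902306-74904524, minus strand, 4 exons) followed a like course in MDA-MB468 at low levels. It was at 3.41 FPKM with vehicle, 2.49 and 4.0 with XY018, 3.57 with ATV and 7.65 with both. It passed 1.5-fold with both compounds only, with a log2 ratio of 1.14 (0.74 to 1.59). In HCC70 CXCL3 was at 1.1, 0.45, 1.00, 1.04 and 0.75 FPKM, and its fall with XY018 at 1.25 μM, -1.13, rests on an estimated 4.3 against 11.3 fragments with an interval of -3.48 to 0.39. With GSK805 it was at 1.44 against 2.45 FPKM, a log2 ratio of -0.73 whose interval of -1.99 to 0.40 also held 0.

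CXCL1, CXCL2 and CXCL3 are near-identical copies in part, and fragments from shared stretches can be assigned to any of them. Of the 50-base words in the transcript of each, 5.33% of CXCL1, 10.1% of CXCL2 and 5.26% of CXCL3 also occur in another of the 3. Summed over these paralogs, the log2 ratio in MDA-MB468 was -0.93 and -0.60 with XY018 at 1.25 and 2.5 μM, 0.03 with ATV, 0.33 with both and -0.87 with GSK805. At 2.5 μM the sum was thus below vehicle although CXCL2 alone was above it. In HCC70 the sums gave -0.39, -0.37, -0.48 and -1.33, and CXCL1 made up most of the summed FPKM.

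CXCL8 (chr4:74606236-74609433, plus strand, 4 exons), the neutrophil chemokine interleukin-8, rose with XY018 in HCC70 and not with XY018 alone in MDA-MB468. In HCC70 it was at 6.10 FPKM with vehicle, 10.4 and 16.1 with XY018 at 1.25 and 2.5 μM, 5.30 with ATV and 8.36 with both. The log2 ratios were 0.76 (0.39 to 1.15), 1.38 (1.05 to 1.75), -0.20 (-0.64 to 0.23) and 0.45 (0.06 to 0.84). The 2.61-fold difference at 2.5 μM lay at percentile 99.7 of all genes compared. In MDA-MB468 CXCL8 was at 16.5, 17.3, 16.1, 16.3 and 27.0 FPKM, which leaves both compounds, with 0.71 (0.55 to 0.87), as the only library past 1.5-fold. The GSK805 pair gave 4.4 against 4.77 FPKM.

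CCL20 (chr2:228670455-228682280, plus strand, 4 exons) encodes the ligand of CCR6, the chemokine receptor of Th17 cells and dendritic cells. It was the member that fell with ATV alone in both lines, at low levels. In MDA-MB468 it was at 3.87 FPKM with vehicle, 3.38 and 3.51 with XY018, 2.14 with ATV and 5.03 with both. The log2 ratio with ATV was -0.83 (-1.49 to -0.20), from an estimated 33.6 against 60.2 fragments, and with both compounds it was 0.37 (-0.12 to 0.90). In HCC70 CCL20 was at 1.02, 1.22, 1.13, 0.49 and 0.50 FPKM. The falls of -0.92 with ATV and -0.90 with both rest on about 3.9 against 8.1 fragments, and both intervals, -3.19 to 0.89, held 0. CCL20 was listed at 0 in the vehicle of the GSK805 experiment and at 0.649 FPKM with GSK805, and no ratio is given.

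IL6 (chr7:22765503-22771621, plus strand, 5 exons), the cytokine that signals through IL6R and IL6ST, did not reach 1 FPKM in any library and was not compared. In HCC70 it was at 0.80, 0.95, 0.94, 0.52 and 0.21 FPKM with vehicle, XY018 at 1.25 and 2.5 μM, ATV and both. In MDA-MB468 it was at 0.27, 0.09, 0.24, 0.11 and 0.40 FPKM in that order, and at 0.354 and 0.619 with vehicle and GSK805. The counting intervals of its ratios to vehicle all held 0, so no difference from vehicle was detectable at this depth.

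**Figure D2:**
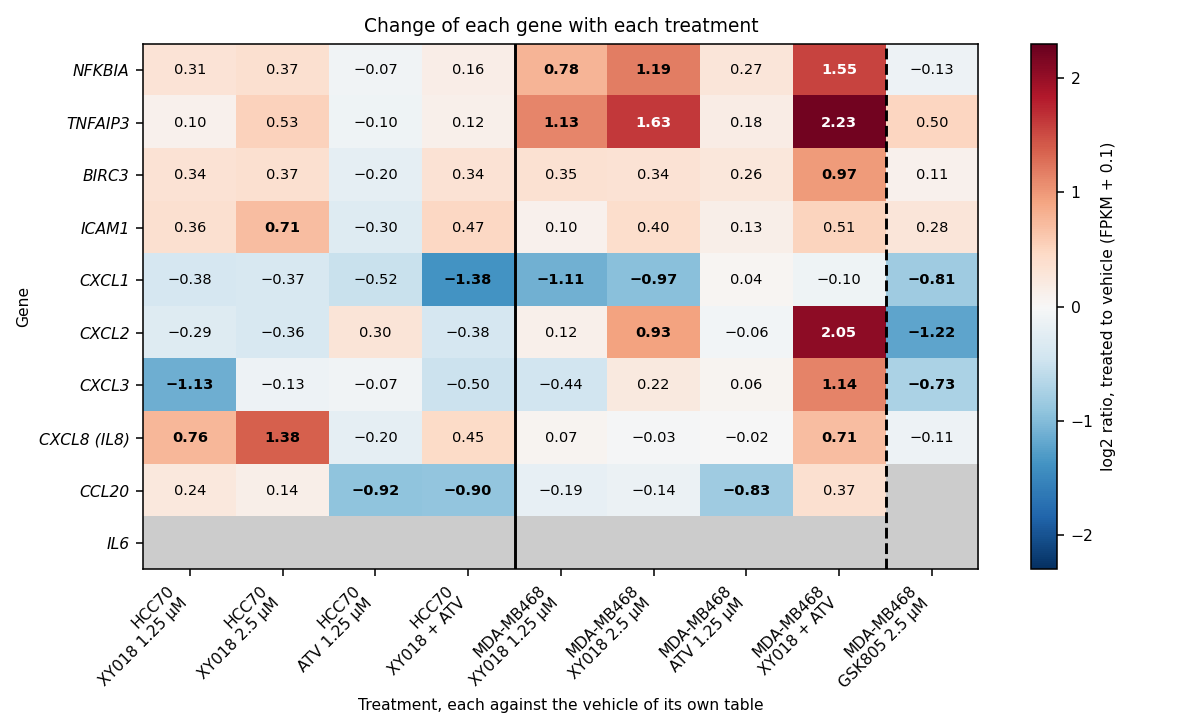
Log2 ratio to vehicle (color scale, red higher and blue lower) of each gene (rows) under each treatment (columns), with bold type for changes of at least 1.5-fold and grey for pairs not compared. The red block lies in the MDA-MB468 columns with XY018, up to 2.23 for TNFAIP3, and the CXCL1 row is blue except for ATV and both compounds in MDA-MB468, at 0.04 and -0.10.

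Counted over the members, both compounds together in MDA-MB468 gave the most, with 6 of 9 compared members higher and 0 lower. Over all 11902 genes in that comparison 13.1% rose and 12.1% fell, and the median log2 ratio was 0.97 over the members against 0.01 over all genes. XY018 at 1.25 μM gave 2 higher and 1 lower of 9, where 9.72% of all genes rose and 8.36% fell, and the median over the members was 0.10. At 2.5 μM, 3 were higher and 1 lower of 9, where 14.1% rose and 14.4% fell, and the median was 0.34. ATV alone gave 0 higher and 1 lower of 9, where 1.36% rose and 0.803% fell. GSK805 gave 0 higher and 3 lower of 8, against backgrounds of 17.6% and 16.6%, and the median over the members was -0.12.

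In HCC70 smaller shares of all genes passed 1.5-fold than in MDA-MB468 in the libraries with XY018, and larger shares with ATV alone. XY018 at 1.25 μM gave 1 member higher and 1 lower of 9, where 1.93% of all genes rose and 2.64% fell. At 2.5 μM 2 were higher and 0 lower, where 2.62% rose and 3.26% fell. With ATV 0 were higher and 1 lower, where 2.22% rose and 1.32% fell. With both compounds 0 were higher and 2 lower, where 4.39% rose and 2.94% fell. The medians over the members were 0.24, 0.37, -0.20 and 0.12, against medians over all genes of -0.01, -0.02, -0.01 and -0.01. With so few members, a single gene decides several of these counts.

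**Figure D3:**
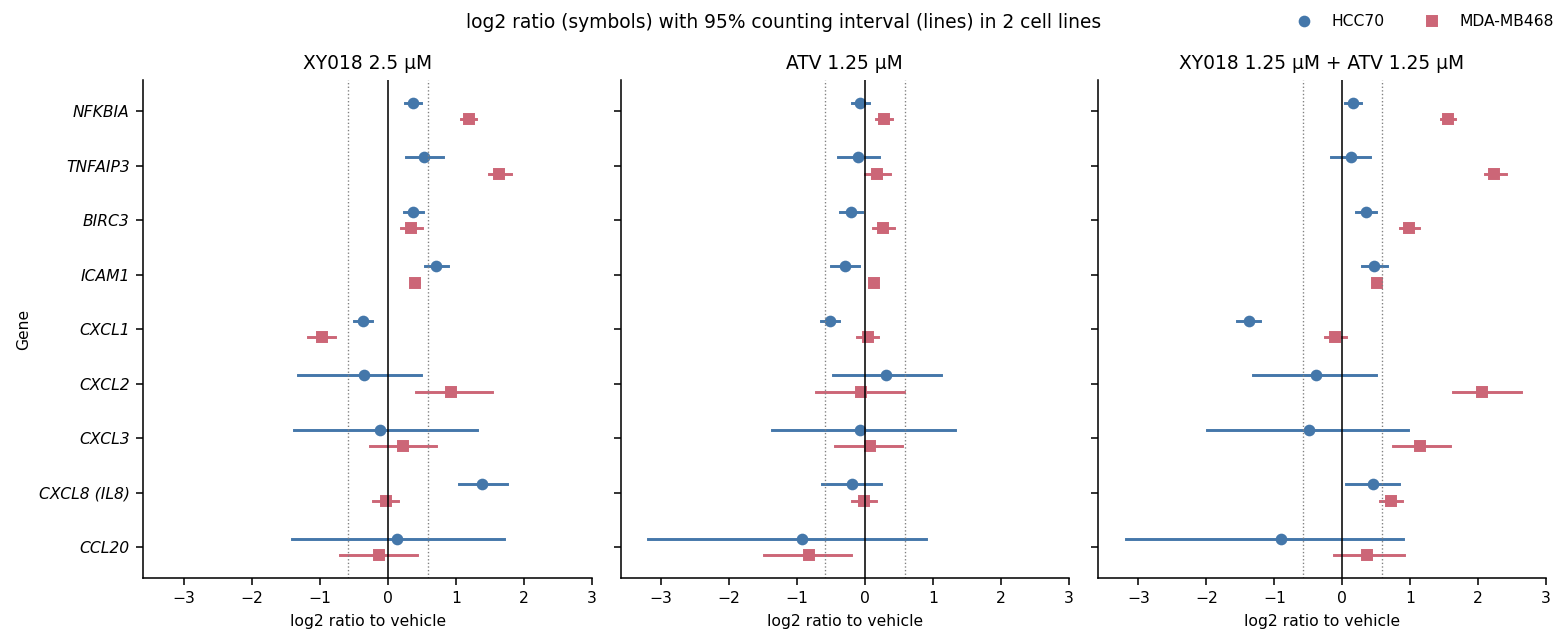
Log2 ratio to vehicle (horizontal axis) with its 95% counting interval (line) for 9 members (rows) in HCC70 (blue circles) and MDA-MB468 (red squares) with XY018 at 2.5 μM, ATV and both compounds; dotted lines mark 1.5-fold. NFKBIA and TNFAIP3 lie further right in MDA-MB468 than in HCC70 with XY018 at 2.5 μM and with both compounds, while CXCL8 at 2.5 μM lies further right in HCC70, at 1.38 against -0.03.

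Set side by side, the lines differed in which member moved with XY018 at 2.5 μM. NFKBIA had a log2 ratio of 1.19 in MDA-MB468 and 0.37 in HCC70, TNFAIP3 1.63 and 0.53, and CXCL2 0.93 and -0.36. CXCL8 went the other way, at -0.03 in MDA-MB468 and 1.38 in HCC70. CXCL1 was at -0.97 and -0.37, and ICAM1 at 0.40 and 0.71. The counting intervals of NFKBIA, TNFAIP3, CXCL8, CXCL1 and ICAM1 did not overlap between the lines and those of CXCL2 did. The share of all genes with such separate intervals was not computed, so this is not shown to be particular to the members. At this dose 14.1% of all genes rose and 14.4% fell in MDA-MB468, against 2.62% and 3.26% in HCC70. With 1 library per condition and line, a difference between the lines could not be tested beyond counting error. No member passed 1.5-fold in opposite directions in the 2 lines when the same treatment was compared with vehicle.

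The doses of XY018, 2.5 against 1.25 μM, were compared directly. In MDA-MB468 2 of 9 members rose between the doses and 0 fell, where 1.03% of genes rose and 1.72% fell. These were CXCL2 at 0.81 (0.28 to 1.37) and CXCL3 at 0.66 (0.15 to 1.24). NFKBIA at 0.41 (0.31 to 0.50), TNFAIP3 at 0.50 (0.38 to 0.62) and ICAM1 at 0.30 (0.25 to 0.35) stayed below 1.5-fold with intervals above 0. CXCL1 was at 0.14 (-0.09 to 0.38), so its fall was already present at the lower dose.

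In HCC70 2 of 9 rose between the doses and 0 fell, where 1.17% of genes rose and 1.35% fell. CXCL8 rose by 0.62 (0.34 to 0.93), and CXCL3 by 1.00 from the few fragments noted above (-0.42 to 3.44). TNFAIP3 at 0.43 (0.16 to 0.70) and ICAM1 at 0.35 (0.19 to 0.51) lay above 0 without reaching 1.5-fold.

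With ATV added to XY018 at 1.25 μM, members rose in MDA-MB468 and fell or stayed below 1.5-fold in HCC70. In MDA-MB468 7 of 9 members were higher with both compounds than with XY018 alone and 0 were lower, where 2.10% of 11787 genes rose and 1.76% fell. CXCL2 rose by 1.93 (1.5 to 2.46), CXCL3 by 1.58 (1.16 to 2.12), TNFAIP3 by 1.09 (0.99 to 1.21) and CXCL1 by 1.01 (0.81 to 1.22). NFKBIA followed with 0.78 (0.69 to 0.86), CXCL8 with 0.64 (0.48 to 0.80) and BIRC3 with 0.63 (0.50 to 0.77). CCL20 at 0.56 (0.06 to 1.13) and ICAM1 at 0.40 (0.36 to 0.45) fell short of 1.5-fold. CXCL2 and CXCL3 lay at percentile 99.9 of all genes. The summed leukocyte markers of these 2 libraries were 25.3 and 22.9 FPKM and the summed epithelial markers 1372 and 1408.

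In HCC70 the same comparison gave 0 higher and 2 lower of 8 members, where 3.75% of genes rose and 1.96% fell. CXCL1 fell by 1.00, with an interval of -1.17 to -0.83, and CCL20 by 1.14, with an interval of -3.43 to 0.56. The other 6 compared members lay between -0.31 for CXCL8 and 0.11 for ICAM1.

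**Figure D4:**
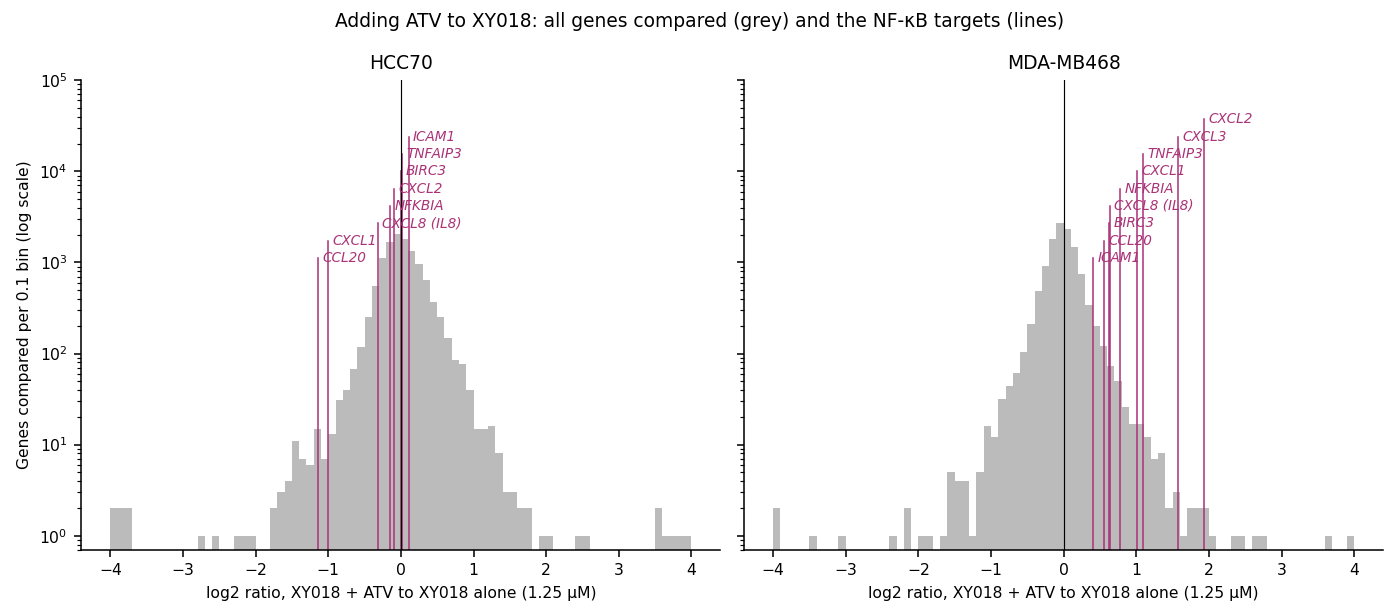
Histogram of the log2 ratio of XY018 with ATV to XY018 alone at 1.25 μM (horizontal axis, values beyond 4 in either direction placed in the outermost bins) over all genes compared, with the number of genes on a log scale, and lines for the members; the height of a line has no meaning. In MDA-MB468 all 9 lines lie to the right of 0, from 0.40 for ICAM1 to 1.93 for CXCL2, and in HCC70 CXCL1 and CCL20 lie to the left at -1.0 and -1.14.

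Against ATV alone, both compounds gave 7 of 9 members higher and 0 lower in MDA-MB468, where 11.7% of genes rose and 11.0% fell. The largest were CXCL2 at 2.12, TNFAIP3 at 2.05 and NFKBIA at 1.28, and CCL20, which ATV alone had lowered, rose by 1.20 (0.63 to 1.85). In HCC70 ICAM1 at 0.76 (0.58 to 0.96) and CXCL8 at 0.65 (0.25 to 1.06) rose, and CXCL1 at -0.87 (-1.04 to -0.69) and CXCL2 at -0.69 (-1.59 to 0.13) fell, of 8 compared. Over all genes 2.70% rose and 2.54% fell. These comparisons share libraries with those against vehicle and XY018 alone and are not independent of them.

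The antagonists XY018 and GSK805 were given at the same dose and time in MDA-MB468 but in separate experiments with separate vehicles, so their ratios are set side by side with no test. Levels of several members differed between these vehicles, as given above, and the part of this in the ratios was not tested. At 2.5 μM CXCL1 was lower with each, at -0.97 with XY018 and -0.81 with GSK805. NFKBIA was at 1.19 and -0.13, TNFAIP3 at 1.63 and 0.50, CXCL2 at 0.93 and -1.22 and CXCL3 at 0.22 and -0.73. BIRC3, ICAM1 and CXCL8 were below 1.5-fold with each, at 0.34, 0.40 and -0.03 with XY018 and 0.11, 0.28 and -0.11 with GSK805. The counting intervals of the 2 compounds did not overlap for NFKBIA, TNFAIP3 and CXCL2 and did for the other 5 members compared. How often this holds over all genes was not computed, so it is not shown to be particular to the members. Over all genes, 14.1% rose and 14.4% fell with XY018 at this dose, and 17.6% and 16.6% with GSK805.

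A further 87 genes of the pathway, in 7 lists by role, were counted in the same way. In HCC70 70 of them were compared, and 3 rose and 1 fell with XY018 at 1.25 μM, 6 and 2 at 2.5 μM, 0 and 1 with ATV, and 3 and 3 with both. In MDA-MB468 10 of 65 rose and 5 fell at 1.25 μM, 17 and 9 at 2.5 μM, 1 and 1 with ATV, and 20 and 5 of 67 with both. GSK805 gave 8 higher and 10 lower of 65. The genome-wide percentages above apply to these counts too.

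Among the 5 subunits of NF-κB itself, 3 rose in MDA-MB468 with both compounds and with XY018 at 2.5 μM, and 0 passed 1.5-fold in HCC70. In HCC70 only 1.32% to 4.39% of all genes passed in a given direction, so 0 of 5 says little. Over all genes, 13.1% and 14.1% rose in those MDA-MB468 libraries. NFKB2, which encodes the precursor of the alternative pathway, went from 20.9 FPKM to 40.4 and 48.8 with XY018 and 45.8 with both, log2 ratios of 0.95, 1.22 and 1.13. RELB, its partner, went from 13.4 to 22.3, 27.9 and 35.8 FPKM, log2 ratios of 0.73, 1.05 and 1.41. RELA, the main activating subunit of the classical pathway, was at 66.7, 94.2, 110 and 107 FPKM and passed 1.5-fold at 2.5 μM and with both. NFKB1 and REL stayed below the mark in each comparison. With GSK805, RELB had a log2 ratio of -0.37 and NFKB2 of 0.30.

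A further 10 genes were grouped loosely as feedback inhibitors, and counts over them describe the list and not the degree of inhibition. Of these, CYLD, a deubiquitinase that restrains IKK signaling, met the naming rule in MDA-MB468. Its log2 ratios were 1.32 at the lower and 1.49 at the higher dose of XY018 and 1.49 with both. In all, 1, 2 and 4 of the 10 rose and 1, 1 and 0 fell there, and 0 of 10 passed in HCC70 under any treatment. Of the 15 kinases and adaptors from IKK upward, none passed 1.5-fold in HCC70 under any treatment. In MDA-MB468 0, 1 and 1 rose and 0, 1 and 0 fell in the 3 libraries with XY018. Over all genes, 9.72%, 14.1% and 13.1% rose and 8.36%, 14.4% and 12.1% fell in those libraries. In HCC70 1.32% to 4.39% passed in a given direction, so 0 of 10 or 0 of 15 says little about these lists.

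Among 19 further chemokine and cytokine genes, TNF and IL32 rose in all 3 MDA-MB468 libraries with XY018. TNF, itself an inducer of NF-κB, was at 3.0 FPKM with vehicle, 6.20 and 9.28 with XY018, 3.10 with ATV and 15.6 with both, log2 ratios of 1.02, 1.60 and 2.34 for the libraries with XY018. IL32, a cytokine induced by TNF, went from 0.78 FPKM to 3.89, 4.79 and 6.38, log2 ratios of 2.18, 2.47 and 2.88. In the GSK805 experiment TNF was at 0.161 with vehicle and 0.0779 FPKM with GSK805 and was not compared.

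In HCC70 the genes of this list named by the rule were IL1A and CXCL5. IL1A, an alarmin that activates NF-κB, was at 1.92 FPKM with vehicle, 3.48 and 5.86 with XY018, 1.41 with ATV and 4.97 with both. Its log2 ratios were 0.83, 1.56 and 1.33 in the libraries with XY018. CXCL5, another ligand of CXCR2, was at 25.3, 14.7, 10.8, 19.4 and 7.99 FPKM in the same order, log2 ratios of -0.78, -1.23 and -1.65 with XY018. CXCL5 was thus lower where CXCL8, also a CXCR2 ligand, was higher. Both compounds gave its lowest level, as they did for CXCL1.

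Of 18 survival and other targets, 13 were compared in MDA-MB468. In the 3 libraries with XY018, 4, 5 and 5 of them rose and 2, 3 and 3 fell. Over all genes, 9.72%, 14.1% and 13.1% rose and 8.36%, 14.4% and 12.1% fell there. SOD2, PLAU and LCN2, and BIRC2 described at the end, rose in all 3 of these libraries, and SAA1 and SAA2 fell in all 3. SOD2, the mitochondrial superoxide dismutase, went from 65.7 FPKM to 174, 213 and 280, log2 ratios of 1.41, 1.69 and 2.09. PLAU, the urokinase gene, had log2 ratios of 1.17, 1.75 and 2.24, and LCN2, the iron-binding lipocalin, 0.77, 0.75 and 0.74. SAA1 and SAA2, acute-phase serum amyloid genes, had -0.81, -1.73 and -1.07 and -1.40, -1.74 and -1.31, and as near-identical copies they may share fragments. With GSK805, SAA1 at -1.18 and SAA2 at -1.53 fell too, and LCN2 fell, at -0.76. In HCC70 the gene named by the rule was TNFAIP2, a TNF-induced gene, at 269.7 FPKM with vehicle, 481 and 537 with XY018 and 481 with both, log2 ratios of 0.84, 0.99 and 0.83.

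Among the 8 receptors of the members' ligands, CXCR1 was listed at 0 in every library and CXCR2 did not pass 0.74 FPKM. CCR6, the receptor of CCL20, was at 1.81 to 2.34 FPKM in HCC70 and at or below 0.54 in MDA-MB468. Of the 12 receptors upstream of NF-κB, 0 passed 1.5-fold in HCC70, and in MDA-MB468 0, 1 and 0 rose and 1, 1 and 1 fell in the 3 libraries that received XY018. The shares over all genes given above for the kinases and adaptors apply here too, so these counts say little about the list.

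The genes whose levels were most like the mean of CXCL1, CXCL2, CXCL3 and CXCL8 over the 10 libraries of the XY018 and ATV experiments, each centred within its table, were PYCARD (Pearson r 0.90), MSANTD3 (0.88), PPIF (0.88), WTAP (0.86) and WDR43 (0.86), out of 7890 searched. The libraries share 2 vehicles and 2 normalizations, and the r values are a description. PPIF, a mitochondrial cyclophilin, was at 76.0 FPKM with both compounds in MDA-MB468 and at 34.6 to 40.5 in the other 4 libraries. PYCARD, the inflammasome adaptor ASC, was at 28.6 against 18.6 to 21.0 FPKM there.

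The promoter windows of all 10 members, from 250 bases before to 50 after the RefSeq start, were searched on both strands for NF-κB motifs and for the half-site that ROR receptors bind. The loose κB form, GGG and CC with any 5 bases between them, was in 10 of 10 members and in 58.7% of 35116 promoters. The tighter form GGANTTNCC, which can overlap the loose one, was in 9 of 10 members and in 4.27% of promoters. Its first base lay at -78 in CXCL1 and CXCL3, -77 in CXCL2, -91 in CXCL8, -72 in IL6, -67 in TNFAIP3, -135 in BIRC3, -186 in ICAM1 and at -81 and -242 in NFKBIA. CCL20 had the loose form only. The members were picked as NF-κB targets, so this share is a description of the choice. The ROR half-site AGGTCA was in 1 of 10 members, CCL20 at -172, and in 13.8% of promoters. CXCL1, CXCL2 and CXCL3 carry the same 11 capital letters at nearly the same place. With XY018 at 2.5 μM in MDA-MB468 their log2 ratios were -0.97, 0.93 and 0.22.

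**Figure D5:**
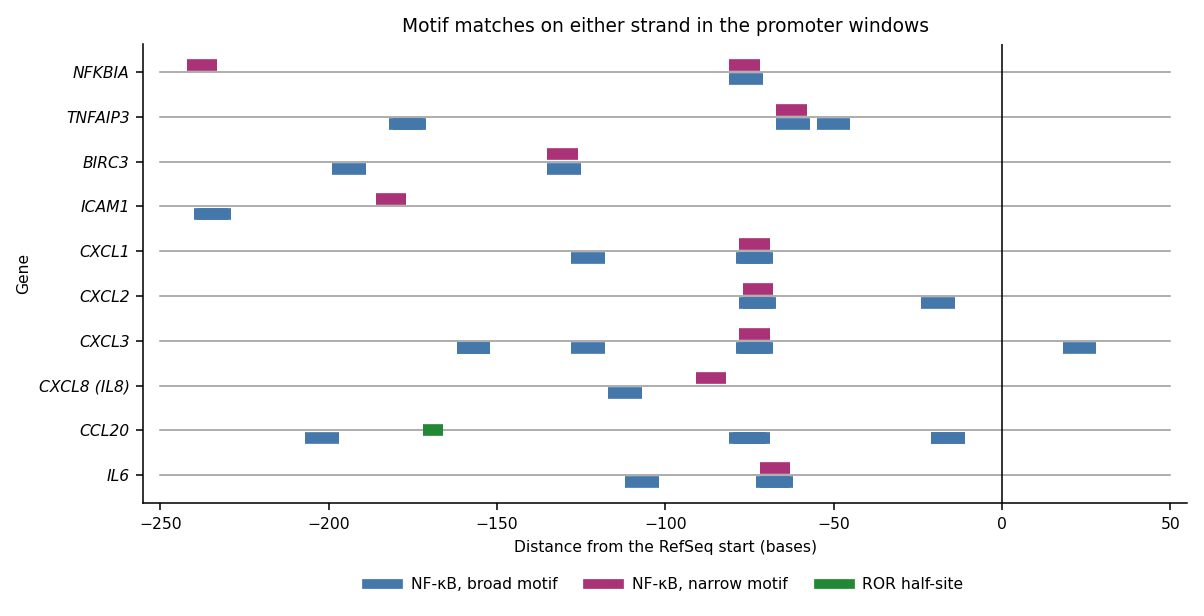
Matches to the loose (blue) and tighter (purple) NF-κB motif and to the ROR half-site (green) on either strand in the promoter window of each member (rows), against distance in bases from the RefSeq start (horizontal axis). The tighter motif lies between -91 and -67 in CXCL1, CXCL2, CXCL3, CXCL8, IL6, TNFAIP3 and NFKBIA, and further upstream in BIRC3 and ICAM1. NFKBIA has another match at -242.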

How the data were processed

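RNA was sequenced from 12 cell line samples, 1 library per condition, prepared with an Illumina TruSeq kit. The authors used BWA and Bowtie for alignment to GRCh37, then Cufflinks for gene levels (versions not given in the sources used here), and the deposited values are FPKM, normalized by table (3 tables). No header gives a unit.

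Samples were grouped by line and treatment. Treated libraries were set against the vehicle in the same table, on log2(FPKM + 0.1), for genes at 1 FPKM in either library. One row was kept per current symbol, the one with the highest mean FPKM. No condition has a replicate, so no test was run. An estimate of depth came from the steps between low FPKM values of single-transcript genes, trying offsets to the transcript length up to 240 nt in steps of 20 nt, and is approximate. Intervals are Clopper-Pearson at 95%. The calculations were tested on simulated data.

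The 10 members, the gene lists and the tests were chosen with earlier results of these data known. All members are named. From each role list up to 5 genes per line are named that reached 5 FPKM and passed 1.5-fold in the same direction in all 3 libraries with XY018, as are the 5 genes most like the mean of CXCL1, CXCL2, CXCL3 and CXCL8. Genes named otherwise were chosen after their values were seen: RELA, NFKB1, REL and the receptors CXCR1, CXCR2 and CCR6. Positions are from GENCODE annotation mapped to GRCh37. Promoter letters are from RefSeq (GRCh38.p14), and all 10 members were matched.

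Alternatives were pseudocounts of 1 and 0.01, no filter and a filter at 5 FPKM, rescaling to a median of 0, all entries of a symbol summed, a 2-fold threshold, the other vehicle for GSK805 and the sum of CXCL1, CXCL2 and CXCL3. Scripts ran in Python 3.11.15 with scipy 1.17.1, pandas 2.3.3, numpy 2.4.6 and, for the plots, matplotlib 3.10.9.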

Additional observations from a re-analysis of the deposited data

Results flagged for a closer look

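CXCL1 changed past 1.5-fold in opposite directions in the 2 lines when both compounds were compared with XY018 alone at 1.25 μM, with a log2 ratio of -1.0 in HCC70 (36.9 against 73.8 FPKM) and 1.01 in MDA-MB468 (27.7 against 13.7 FPKM). The counting intervals, -1.17 to -0.83 and 0.81 to 1.22, did not overlap, but with 1 library per condition the difference between the lines was not tested. CXCL2 did so when both compounds were compared with ATV alone, with -0.69 in HCC70 (1.84 against 3.02 FPKM) and 2.12 in MDA-MB468 (8.74 against 1.94 FPKM). That difference was not tested either, and the HCC70 interval, -1.59 to 0.13, held 0. The summed leukocyte markers were at 487 FPKM with both compounds, 408 with XY018 and 263 with ATV in HCC70, and at 25.3, 22.9 and 21.6 FPKM in MDA-MB468, and their part in these differences was not tested.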

How the results depend on the processing

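Rescaling libraries to a median log2 ratio of 0, a pseudocount of 0.01 and summing the entries of a symbol left every count and median of the members, and every ratio of a member, within the limits set for no change. A count was taken as moved only if it changed more than 1.5-fold, or to or from 0. A median was taken as moved if it left the counting interval of the middle members. Of 183 counts and medians under the alternatives, 24 moved. With a pseudocount of 1, the members counted as lower became 0 with XY018 at 1.25 μM and with ATV in HCC70 and 1 with both. A filter at 5 FPKM gave the same 0, 0 and 1, and 0 lower with ATV in MDA-MB468, 1 lower with GSK805 and a median of 0.23 with XY018 at 1.25 μM in MDA-MB468. With no filter, 2 were lower in MDA-MB468 with XY018 at 1.25 μM and with ATV, 2 were higher with GSK805, and the median with both compounds was 0.84. At 2-fold, 0 and 1 were higher in HCC70 with XY018 at 1.25 and 2.5 μM and 1 in MDA-MB468 at 1.25 μM, and the lower counts were 0 with ATV in each line, 1 with both in HCC70, 0 with XY018 at 2.5 μM in MDA-MB468 and 1 with GSK805. Also at 2-fold, 4 members were higher in MDA-MB468 with both compounds and 2 with XY018 at 2.5 μM, within the limit for counts. Over all genes 569 of 11902 and 643 of 11914 were higher there. The filters and the threshold change which genes can be counted.

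Against the vehicle of the XY018 experiment, 2 members were higher and 5 lower with GSK805 and the median was -1.19. Over all 12300 genes in that comparison 6119 were higher and 1151 lower, and the median was 0.58. These vehicles come from separate experiments and separately normalized tables, and the cause was not tested. CXCL2 with XY018 at 2.5 μM in MDA-MB468 reversed from 0.93 to -0.60 when CXCL1, CXCL2 and CXCL3 were summed, because CXCL1 holds most of that sum. No paired analysis was possible because each condition has 1 library, and no library could be left out for the same reason. Depth limits IL6 in every library, and CXCL2, CXCL3 and CCL20 in HCC70 and in the GSK805 experiment, where values rest on few fragments.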

Other observations

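Several other genes of the pathway lists, chosen here after their values were seen, differed in level or direction between the lines. IL1B, the second interleukin-1 gene, was at 7.94 FPKM with vehicle in HCC70 and at 11.8, 17.1, 5.55 and 12.3 with XY018 at 1.25 and 2.5 μM, ATV and both, and was listed at 0 in 4 of the 5 MDA-MB468 libraries with XY018 and ATV. CCL2, a monocyte chemokine, was at 17.6 FPKM with vehicle in HCC70, 20.6 and 18.2 with XY018, 9.13 with ATV and 9.16 with both, and did not pass 0.14 FPKM in those MDA-MB468 libraries. It was thus low in the same HCC70 libraries as CCL20, those that received ATV. CCL5, a T cell chemokine, was at 4.50 FPKM with vehicle in MDA-MB468, 6.35 and 13.8 with XY018, 7.93 with ATV and 25.1 with both, and at 58.5, 50.8, 41.5, 58.4 and 50.5 FPKM in HCC70.

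NFKBIZ, an atypical IκB protein that acts in the nucleus, moved against NFKBIA in MDA-MB468, from 14 FPKM with vehicle to 8.78 and 8.37 with XY018, log2 ratios of -0.67 and -0.74, and was at 12.3 with both. BIRC2, the gene next to BIRC3 that encodes cIAP1, had log2 ratios of 0.62, 0.62 and 0.66 in the MDA-MB468 libraries with XY018, and of 0.04, 0.04 and -0.06 in HCC70. IL6R, the receptor of IL6, went from 1.29 FPKM to 2.74, 4.42 and 4.22 in the MDA-MB468 libraries with XY018, and from 0.0416 to 1.89 with GSK805. In HCC70 it was at 2.23 FPKM with vehicle and at 2.5, 3.44 and 2.88 in the libraries with XY018, and it also rose there at 2.5 μM, with a log2 ratio of 0.60. The cause of these patterns was not tested.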
